A study of Drosophila melanogaster with 27 samples.

Results

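The expression of 10 genes of phototransduction in the fly eye (ninaE, inaD, inaC, ninaC, ninaA, norpA, trp, trpl, Arr1 and Arr2) was followed through inbred lines of Drosophila melanogaster and their outbred control. The genes were chosen by name, with earlier results of these data known, so that their counts are not those of a list fixed in advance. A gene was measured when the annotation of the array gave it a probe set that matched no other gene, which held for 6 of the 10 (inaD, inaC, trp, trpl, Arr1 and Arr2) among 11982 genes with such a probe set in all. The other members, ninaE (the major rhodopsin), norpA (phospholipase C), ninaC (a myosin III) and ninaA (a chaperone of rhodopsin), have no probe set named here and have no values in what follows. All 6 measured genes passed the filter on low values.

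The samples were 27 arrays, each with total RNA of a pool of 30 whole adult males. Each of 4 lines, numbered 5, 7, 12 and 15 and founded by 1 couple each, gave 3 most depressed sublines (+D, those with low productivity) and 3 least depressed sublines (−D, those with high productivity) after 8 generations of sib mating. The outbred control, from the base population of the lines, gave 3 samples. All flies, controls included, had been kept under continuous light, no other treatment is named, and neither the alleles fixed in a subline nor the male age in days is given in the labels. A line descends from 1 couple, so that its sublines are replicates of that couple's genomes and not of inbreeding at large, and p-values measure only the spread between these samples. Values are log2 intensities.

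In the photoreceptors of the fly, light converts rhodopsin to metarhodopsin, which activates a Gq protein and through it the phospholipase C encoded by norpA. The channels encoded by trp and trpl then open and calcium enters the microvilli of the rhabdomere. The scaffold protein of inaD holds the channel, the phospholipase and the eye protein kinase C of inaC together, and the arrestins of Arr1 and Arr2 bind metarhodopsin and end its activity. These genes are expressed mainly in the eye, so whole males report on the eye only through its share of the body's RNA. In bulk samples of this kind fewer photoreceptors and less RNA per photoreceptor cannot be told apart. Photoreceptor RNA was present in every array, as the visual G protein β subunit gene Gbeta76C was between 10.76 and 11.54 in the inbred sublines, against 11.32, 10.70 and 11.20 in the control.

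All 6 genes were expressed at higher levels in the inbred sublines than in the outbred control, and the comparison of the 8 inbred groups with the control found each of them past the threshold (limma, adjusted p under 0.05). This was so for 6 of 6, where 29.5% of the probe sets tested were higher. With each array centred on its median 6 of 6 still passed, where 18.7% of all probe sets did, and the share of higher among all called was 49.1% in place of 67.3%. The median change was 0.59 on the log2 scale, against 0.11 over all probe sets tested. The count rests in part on control replicate 2, the lowest of the controls for every one of the 6 genes. Without it 3 of 6 remained past the threshold (inaD, Arr1 and Arr2), where 23% of all probe sets were higher. The median change was then 0.42, against 0.12 over all probe sets.

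The arrestin genes showed the clearest separation. Arr2, the more abundant arrestin of the photoreceptor, was between 12.45 and 13.21 in +D sublines (median 12.97, n = 12) and between 12.58 and 13.03 in −D sublines (median 12.74, n = 12), against 12.14, 11.70 and 12.17 in the control. Every one of the 24 inbred sublines was above all 3 control samples, as was the case for 9.15% of all probe sets. The inbred mean exceeded the control by 0.85 ± 0.11 (SE), that is 1.80-fold (adjusted p = 7.62e-06), and by 0.69 without control replicate 2 (adjusted p = 0.000364). Both levels of depression contributed to it, with 0.91 ± 0.12 for +D (adjusted p = 8.18e-06) and 0.78 ± 0.12 for −D against the control (adjusted p = 2.99e-05).

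Arr1, the second arrestin, ranged from 11.82 to 12.50 in +D sublines (median 12.28) and from 11.82 to 12.25 in −D sublines (median 12.04), against 11.82, 11.35 and 11.78 in the control. In 23 of the 24 inbred sublines it was above the highest control. The inbred mean was higher by 0.50 ± 0.11 (adjusted p = 0.00134), and by 0.35 without control replicate 2 (adjusted p = 0.0365).

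Of the channel genes, trp encodes the subunit that carries most of the light-induced current. It ranged from 9.42 to 10.79 in +D sublines (median 10.23) and from 9.52 to 10.57 in −D sublines (median 10.14), against 9.71, 9.25 and 9.68 in the control. The groups overlapped in 3 inbred sublines, as 21 of 24 were above the highest control. The difference of 0.61 ± 0.17 (adjusted p = 0.00688) became 0.46 without control replicate 2 and was no longer past the threshold (adjusted p = 0.0817).

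The gene trpl encodes a channel subunit that moves out of the rhabdomere in the light. Its values spread the most, from 8.07 to 10.27 in +D sublines (median 9.29) and from 7.88 to 9.64 in −D sublines (median 8.96), against 8.52, 8.05 and 8.75 in the control. Only 19 of 24 inbred sublines were above the highest control. The difference was 0.63 ± 0.21 (adjusted p = 0.0185). It missed the threshold without control replicate 2 (0.44, adjusted p = 0.168) and without control replicate 1 (0.67, adjusted p = 0.0548).

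The scaffold and kinase genes were also higher in the inbred sublines. inaD lay between 8.09 and 9.09 in +D sublines (median 8.84) and between 8.09 and 8.94 in −D sublines (median 8.46), against 8.15, 7.71 and 8.27 in the control, and 22 of 24 sublines were above the highest control. Its difference of 0.58 ± 0.12 (adjusted p = 0.000776) was 0.41 without control replicate 2 (adjusted p = 0.0238). The kinase gene inaC lay between 9.32 and 10.36 in +D sublines (median 9.89) and between 9.17 and 9.87 in −D sublines (median 9.57), against 9.35, 8.79 and 9.30 in the control, with 20 of 24 sublines above the highest control. Its difference was 0.53 ± 0.13 (adjusted p = 0.00251), and 0.35 without control replicate 2 (adjusted p = 0.0613).

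Set against the control on their own, the +D sublines were higher for 6 of 6 genes (25.9% of all probe sets) with a median change of 0.72. For the −D sublines 5 of 6 were higher (30.7% of all probe sets) with a median of 0.44, and trpl did not pass (0.48 ± 0.22, adjusted p = 0.0819). Without control replicate 2 these counts were 4 of 6 for +D and 1 of 6 for −D, where Arr2 alone remained (0.63, adjusted p = 0.000975). The shares of all probe sets were not computed for each level under this omission. Both comparisons share the same 3 control samples.

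**Figure D1:**
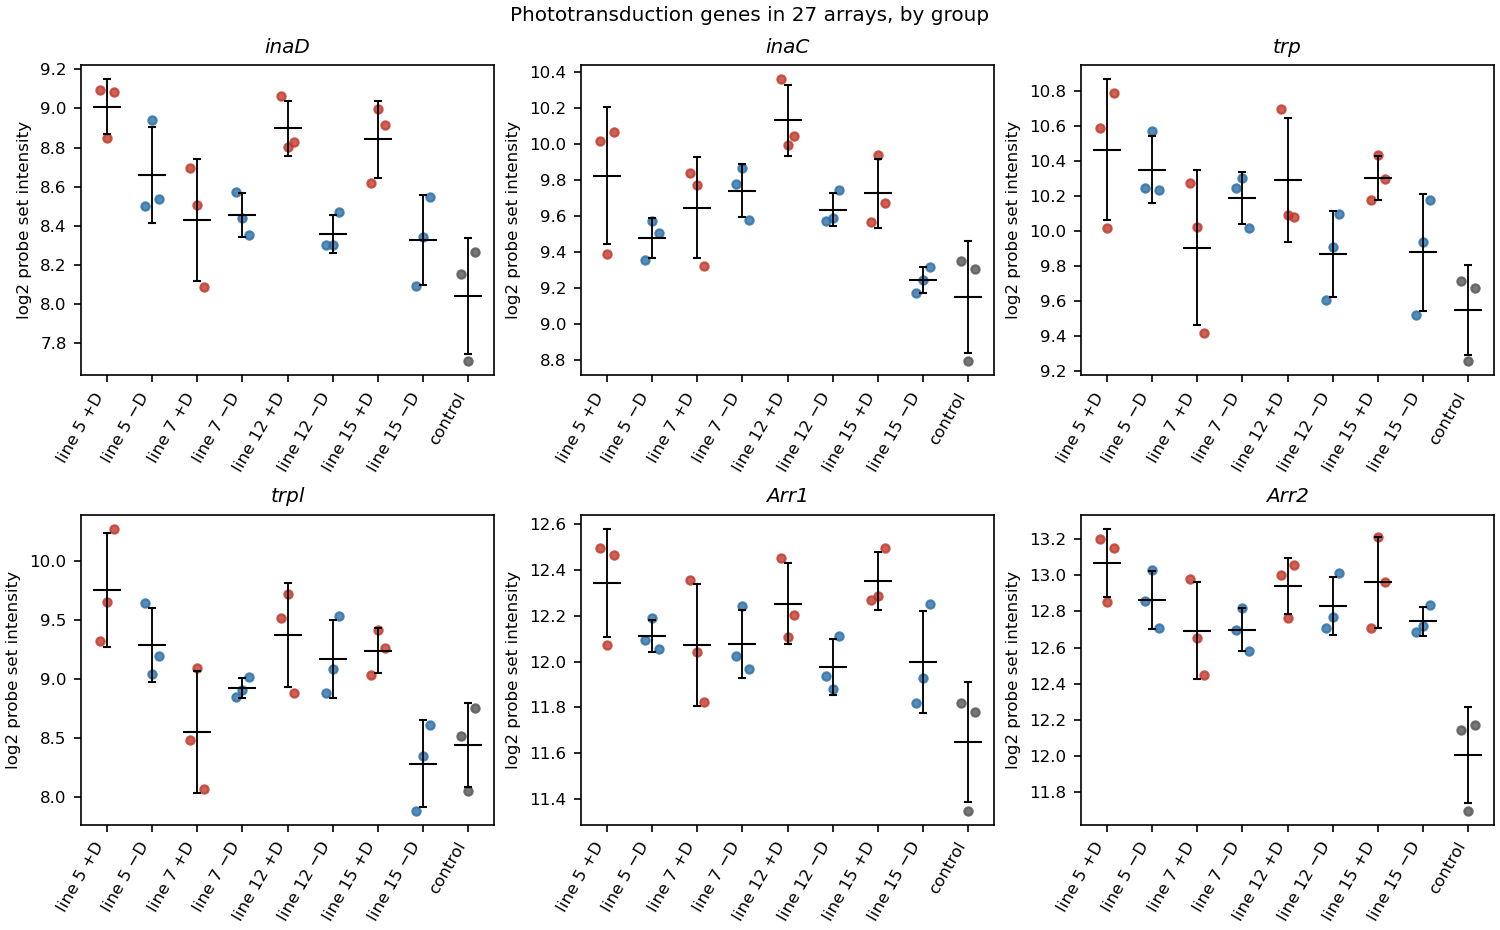
Log2 intensity of the 6 phototransduction genes (vertical axes, 1 panel a gene) in the 9 groups (horizontal axes). Points are samples, red for +D, blue for −D and grey for the control, and black bars give the mean and SD of 3 samples. The control is the lowest group for all genes but trpl, and in line 7 the 2 levels lie at similar heights.

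The flies of control replicate 2 also had the lowest sum of antennal transcripts of the 27 arrays. The summed intensity of 7 of 8 antennal marker genes (odorant-binding proteins and related genes), as a log2 value, was 11.76, 9.86 and 10.65 in the 3 control samples. It ranged from 10.53 to 12.07 in +D sublines and from 11.01 to 12.19 in −D sublines. The sum leans on the brightest marker, Obp19d, at 10.92, 9.35 and 10.12 in the control. The mean log2 deviation of the markers was 1.05, −1.06 and −0.30 in the 3 control samples. By this measure control replicate 1 was the highest of the 27 arrays and control replicate 2 the lowest. One antennal gene of the 6 tested rose against the control, the odorant-binding protein gene Obp19d (1.06 ± 0.24, adjusted p = 0.00129). Markers of neurons (8 of 10 measured) had the same order in the 3 control samples, with sums of 11.84, 11.57 and 11.72. For these neuron markers, however, control replicate 2 was not the lowest of the 27 arrays. Their summed level ranged from 11.38 to 11.76 in +D, from 11.09 to 11.76 in −D, and from 11.57 to 11.84 in the control. Of the 6 neuron markers tested the RNA-binding protein gene elav rose against the control (0.41, adjusted p = 0.0464), whereas the synaptic genes Snap25 (−0.30, adjusted p = 0.00965) and VAChT (−0.42, adjusted p = 0.00617) fell. The part of tissue composition in the difference from the control was not tested.

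**Figure D2:**
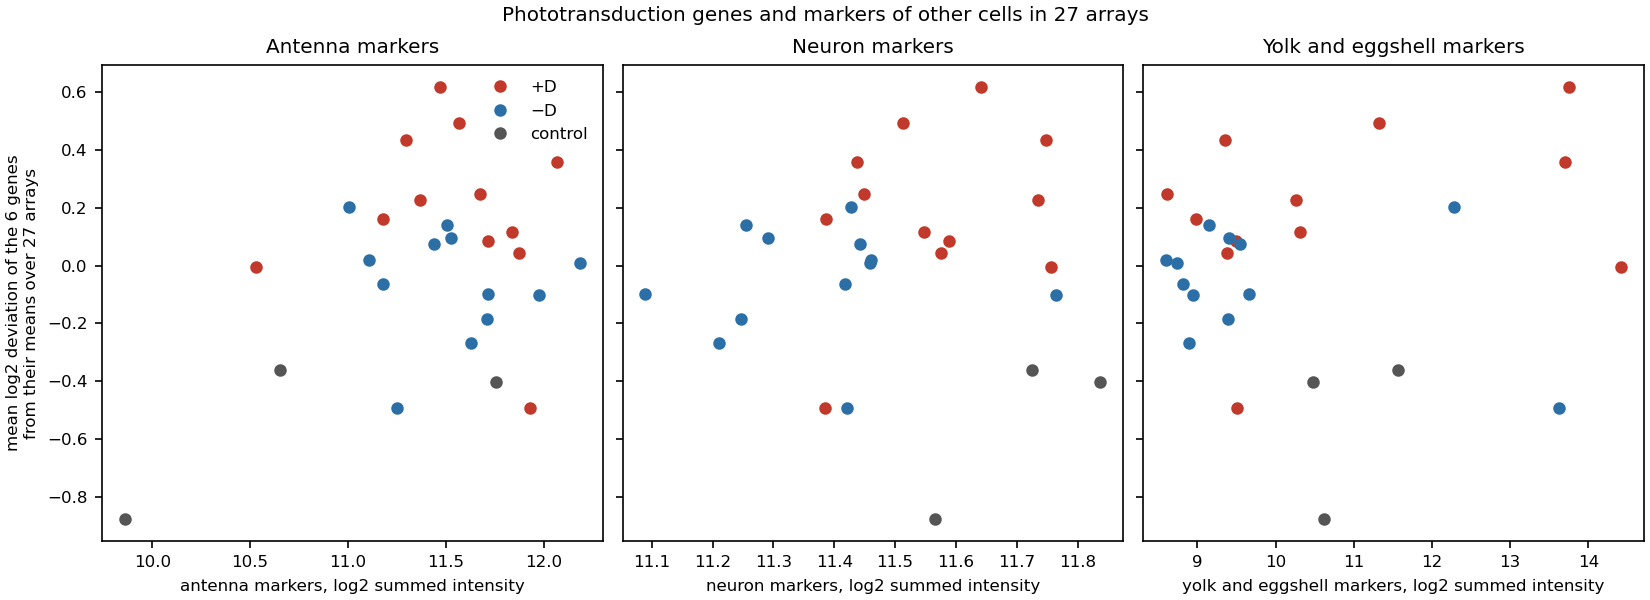
Mean log2 deviation of the 6 phototransduction genes from their means over 27 arrays (vertical axis) plotted on the log2 summed intensity of antennal, neuron, and yolk and eggshell markers (horizontal axes). Each point is a sample, red for +D, blue for −D and grey for the control. Control replicate 2 is the lowest point, at −0.88 on the vertical axis and 9.86 for the antennal markers.

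Between the levels of depression, the genes of the scaffold and the kinase were higher in +D than in −D sublines. The test over the 4 lines found 2 of 6 genes higher in +D, inaD and inaC, where 6.39% of all probe sets tested were higher. The change was positive for 6 of 6 genes, as it was for 46.5% of all probe sets, with a median of 0.26 against −0.01 over all. For inaD the mean was 8.80 ± 0.29 in +D and 8.45 ± 0.21 in −D (SD, n = 12 each), a difference of 0.35 ± 0.08 (SE), or 1.27-fold (adjusted p = 0.00581). For inaC it was 9.83 ± 0.30 in +D and 9.52 ± 0.22 in −D, a difference of 0.31 ± 0.09, or 1.24-fold (adjusted p = 0.0183). The ranges of the levels overlapped in both.

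The other genes did not pass between the levels. Arr1 had a difference of 0.21 ± 0.08 (adjusted p = 0.0579), which passed in 7 of the 37 other ways of processing the data. For trpl it was 0.31 ± 0.14 (adjusted p = 0.149), for trp 0.17 ± 0.11 (adjusted p = 0.37), and for Arr2 0.13 ± 0.07 (adjusted p = 0.276). Before adjustment 4 of the 6 genes had a p under 0.05.

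Transcripts of other cells also varied among the sublines. The summed level of 12 of 13 yolk and eggshell genes, which are products of females, ranged from 8.62 to 14.42 in +D and from 8.60 to 13.62 in −D sublines, against 10.48 to 11.56 in the control. Of these genes 0 of 11 tested passed the threshold between levels. Without the 3 +D arrays that held eggshell transcripts (line 5 replicate 3, line 7 replicate 2 and line 15 replicate 2) the difference of inaC was 0.23 and no longer passed (adjusted p = 0.0994), while inaD still did (0.31, adjusted p = 0.035). Arrays were left out on the +D side alone. The −D arrays with high sums of yolk and eggshell genes, line 15 replicate 1 (13.62) and line 5 replicate 2 (12.28), were kept. Line 15 −D replicate 1 was also the lowest −D subline for inaD (8.09). Of the 6 neuron markers tested, Snap25 (0.21, adjusted p = 0.0196) and the calcium channel gene cac (0.33, adjusted p = 0.00682) were higher in +D. The part of these cells in the difference between levels was not tested further.

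The calls of inaD and inaC depend on how the sample codes are treated. Most −D samples have a code that holds a number from 81 upwards. This was so for 9 of 12 −D sublines, 1 of 12 +D sublines and 0 of 3 controls. Several of these codes, that of the +D subline included, join such a number to a low one, and they were counted with the high codes. With the code range as a covariate the difference was 0.33 for inaD (adjusted p = 0.157) and 0.42 for inaC (adjusted p = 0.0728), so that neither passed, and 1.34% of all probe sets were then higher in +D. Whether the codes stand for anything in the handling of the samples is not given in the labels, and their part was not tested further. In line 15, only 1 of the −D samples has such a code, a joined one. There inaD was 8.09 in the −D sample with that code, against 8.34 and 8.55 in those with low codes. In line 7 the order was the opposite, as inaD was 8.57 and 8.44 in the −D samples with codes from 81 upwards, against 8.35 in the one with a low code. In line 5 inaD was 9.09 in the +D sample with a joined code, against 9.09 and 8.85 in those with low codes. These are values of single samples, and no test was made on them.

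The values of the sublines are given here by line. In line 12, inaD was 9.06, 8.80 and 8.83 in the +D sublines, against 8.30, 8.30 and 8.47 in the −D sublines, and inaC was 10.36, 9.99 and 10.04 in +D, against 9.57, 9.59 and 9.74 in −D. In line 15, inaD was 8.62, 9.00 and 8.92 in +D, against 8.09, 8.34 and 8.55 in −D, and inaC was 9.57, 9.94 and 9.67 in +D, against 9.17, 9.24 and 9.32 in −D. All +D sublines were above all −D sublines in these 4 cases. The share of all probe sets separated in this way was not computed, and none of the 4 differences passed the threshold within its line.

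In line 15 the same full separation held for trp, trpl and Arr1, again with no share of all probe sets computed and no difference past the threshold. The channel gene trpl was 9.04, 9.41 and 9.27 in +D sublines of line 15, against 7.88, 8.35 and 8.61 in −D sublines, a difference of 0.96 ± 0.28 (adjusted p = 0.0977). It was the widest gap between the levels of any of the 6 genes in any line.

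Line 7 gave no such gap. There inaD was 8.70, 8.51 and 8.09 in +D sublines, against 8.57, 8.44 and 8.35 in −D sublines, with +D replicate 3 the lowest subline of all 24. The 6 changes of line 7 had a median of −0.06 and ranged from −0.38 for trpl to −0.0041 for Arr1, all at or below 0, although median centring of the arrays turned the sign of inaD, Arr1 and Arr2 and omission of 1 array that of these and inaC.

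No gene passed within a line (0 of 6 in each of lines 5, 7, 12 and 15, where 0.788, 0, 1.24 and 0.372% of all probe sets were higher in +D). Before adjustment 1, 0, 2 and 4 of the 6 genes had a p under 0.05 in lines 5, 7, 12 and 15. The closest was inaD in line 12 (0.54 ± 0.16, adjusted p = 0.0604), where level and sample code cannot be told apart. Nor did the difference between levels itself vary among lines beyond the threshold, as the F test of the interaction called 0 of 6 (0.0219% of all probe sets), with 1 of 6 under 0.05 before adjustment and adjusted p between 0.565 and 0.991. With 3 sublines a group, that test does not show that the lines are alike.

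**Figure D3:**
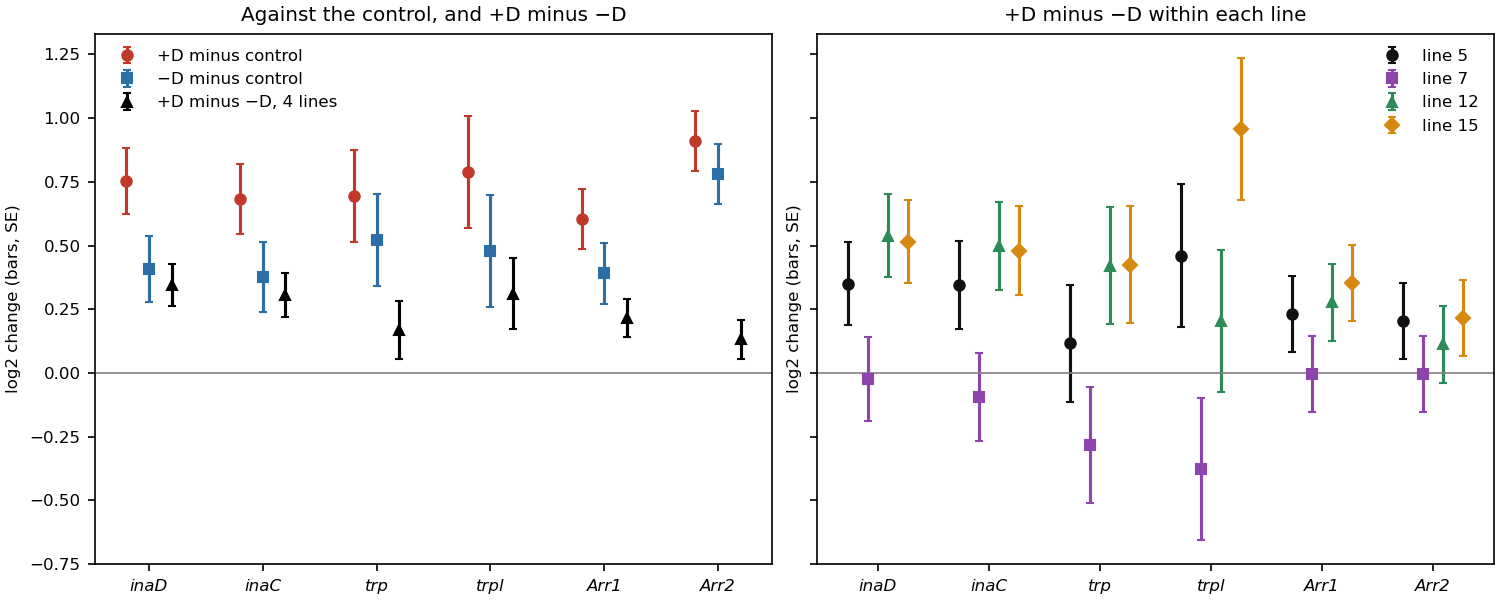
Log2 changes of the 6 genes with their standard errors (vertical axes). Left, +D against the control (red), −D against the control (blue) and +D against −D over the 4 lines (black). Right, +D against −D within lines 5, 7, 12 and 15. All changes at the left are above 0, and line 7 (purple) lies at or below 0 for every gene, where median centring of the arrays turns the sign of inaD, Arr1 and Arr2.

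Among lines, trpl was the one gene with a difference past the threshold (F test, 1 of 6 genes and 11.8% of all probe sets, adjusted p = 0.0196), while 3 of 6 had a p under 0.05 before adjustment. In line 5, trpl was 9.32, 9.65 and 10.27 in +D and 9.64, 9.04 and 9.19 in −D sublines, 0.60 ± 0.16 above the mean of the other lines (adjusted p = 0.0413, where 2.28% of all probe sets were higher in line 5). Omission of 1 array moved this difference between 0.47, without line 5 +D replicate 3, and 0.70, and its adjusted p was above the threshold in 13 of the 24 omissions of an inbred array. Its lowest groups were line 7 +D (8.55 ± 0.52) and line 15 −D (8.28 ± 0.37), beside the control (8.44 ± 0.36, SD, n = 3 each).

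The order of the 9 group means had the same ends in most genes. Line 5 +D was the highest group for inaD, trp, trpl and Arr2, line 12 +D for inaC and line 15 +D for Arr1, and the control was the lowest for 5 of 6. Of the 48 gaps between neighbours in these orders 5 exceeded the larger SD of the neighbours, and 3 of these 5 set the lowest inbred group apart from the control, in trp, Arr1 and Arr2. The other pair lay in inaC, below line 12 −D and below line 5 −D. Most neighbouring groups thus did not differ beyond their spread.

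Sublines also varied more among themselves in +D than in −D. The SD within groups was 0.27 in +D and 0.11 in −D for inaC, and 0.43 in +D and 0.30 in −D for trpl. It was larger in +D for 6 of 6 genes, as for 74.3% of all probe sets, so the genes do not stand out in this.

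The 6 genes went up and down together from array to array. Pearson's r over the 27 arrays, which share group differences as well as single samples, was between 0.60 and 0.90 in the 15 pairs. With the group means taken out it was between 0.29 and 0.89. The lowest values of this second kind all involved trpl, whose r over the 27 arrays with the mean of the other 5 genes was 0.71, against 0.94 for inaD, 0.91 for trp and Arr1, 0.85 for Arr2 and 0.81 for inaC. Among the 9128 probe sets compared with the other 5 genes, inaD ranked 1, trp and Arr1 ranked 4, Arr2 ranked 14, inaC ranked 34 and trpl ranked 194. These correlations describe the arrays and were not tested.

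The 5 genes with the profile most like the mean of the 6, among probe sets of 1 gene, were rtp (r = 0.92), Hdc (r = 0.92), Slob (r = 0.90), stops (r = 0.89) and Lk6 (r = 0.88). Retinophilin, the product of rtp, is a photoreceptor protein that works with the myosin of ninaC, and Hdc is the decarboxylase that makes histamine, the transmitter of photoreceptors. The product of stops is needed for normal levels of the norpA phospholipase. Slob binds the potassium channel Slowpoke and Lk6 is a kinase of a translation initiation factor. Slob was between 8.34 and 8.77 in +D and between 8.15 and 8.71 in −D sublines, against 7.61 to 8.01 in the control, without overlap (0.66 ± 0.09, adjusted p = 7.03e-06). Such a separation held for 9.15% of all probe sets. Slob was picked for its likeness to the 6 genes over arrays that include the control. Its difference from the control is thus partly built into the choice and is no independent result.

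The other genes of vision did not all move with these 6. In 8 lists of phototransduction and eye genes, 42 of 59 genes had a probe set of their own and 28 were tested. Each gene was counted by its brightest probe set. Between the levels 4 of the 28 rose in +D and 0 fell, where 6.39% of all probe sets rose and 9.04% fell, with a median change of 0.16. With the sample codes as a covariate none of these 4 passed. Against the control 4 of 28 were higher in the inbred sublines and 6 were lower, where 29.5% and 14.3% of all probe sets were, with a median of 0.01. The median of these lists was thus above 0 between levels, as was that of the 6 genes, and close to 0 against the control, where that of the 6 genes was 0.59.

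The G protein and phosphoinositide cycle held 3 of the 4 genes that rose in +D, of 8 tested. Galphaq, the α subunit of the visual G protein, was between 9.62 and 10.63 in +D and between 9.35 and 10.11 in −D sublines (0.35 ± 0.09, adjusted p = 0.00843). Gbeta76C, its β subunit, rose by 0.31 ± 0.07 (adjusted p = 0.00564), and rdgA, the diacylglycerol kinase, by 0.32 ± 0.08 (adjusted p = 0.00897). Against the control these 3 genes did not pass, with changes of −0.09, 0.13 and 0.02 in the same order. With the sample codes as a covariate none of the 3 passed between levels (adjusted p = 0.135, 0.153 and 0.112). A second, dimmer probe set of Galphaq went against the one given, with −0.09 ± 0.06 between levels (adjusted p = 0.34) and 0.33 ± 0.09 against the control (adjusted p = 0.00394). A second one of rdgA did not pass between levels (0.20 ± 0.07, adjusted p = 0.0717).

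In the same list stops was more than doubled in the inbred sublines. It ranged from 8.04 to 9.16 in +D and from 8.15 to 8.79 in −D sublines, against 7.66, 7.14 and 7.52 in the control, without overlap (1.11 ± 0.13, 2.17-fold, adjusted p = 2.3e-06). Such a separation held for 9.15% of all probe sets. Pis, the phosphatidylinositol synthase gene, differed among lines (adjusted p = 0.000379). In line 7 it ranged from 5.69 to 10.80 in +D and from 5.43 to 8.36 in −D sublines, whereas in the other 3 lines all values were between 10.55 and 11.06. The mean of line 7 was below that of the other lines (log2 change −3.56, adjusted p = 0.000147). A second probe set of Pis was also lower in line 7, but by far less (log2 change −0.65, adjusted p = 0.000147), and higher in +D than in −D (0.26 ± 0.07, adjusted p = 0.0129), where the first did not pass (0.48 ± 0.39, adjusted p = 0.467). Whether a sequence difference under its probes takes part in the low signal of the first was not tested.

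Among the genes of response termination and calcium (4 tested) the receptor kinase gene Gprk1 was higher in the inbred sublines (0.33 ± 0.09, adjusted p = 0.00459). Calx, the exchanger that removes calcium after the response, was lower. It was between 7.87 and 8.65 in +D and between 7.90 and 8.50 in −D sublines, against 9.11, 8.83 and 8.93 in the control, without overlap (−0.81 ± 0.13, adjusted p = 7.71e-05). The share of all probe sets that lay below all controls was not computed. The others tested did not pass, rdgC (−0.03, adjusted p = 0.856) and rtp (0.31, adjusted p = 0.0641). Between levels rtp did not pass either (0.24, adjusted p = 0.0729). A second, dimmer probe set of rtp passed between levels (0.28, adjusted p = 0.0414) but not against the control (0.21, adjusted p = 0.228). The arrestins and Gprk1 were thus higher in the inbred sublines, the exchanger was lower, and rdgC and rtp did not pass.

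Of the rhabdomere genes (4 tested) 2 were lower against the control, chp and crb, and the other two did not pass (eys −0.27, adjusted p = 0.117, and the calnexin gene Cnx99A 0.01, adjusted p = 0.896). Chaoptin, the product of chp, is the adhesion protein of the microvilli. The gene ranged from 10.36 to 10.99 in +D and from 9.89 to 10.71 in −D sublines, against 11.26, 10.52 and 10.95 in the control. It was thus lower in the inbred sublines (−0.36 ± 0.12, adjusted p = 0.0255), yet higher in +D than in −D (0.35 ± 0.08, adjusted p = 0.00548). With the sample codes as a covariate chp passed neither between levels (0.29, adjusted p = 0.231) nor against the control (−0.31, adjusted p = 0.0893). The polarity gene crb, which shapes the photoreceptor membrane, was also lower (−0.34 ± 0.09, adjusted p = 0.00337). Both missed the threshold without control replicate 1 (−0.18 for chp, adjusted p = 0.342, and −0.22 for crb, adjusted p = 0.0908), and chp also without control replicate 3 (−0.34, adjusted p = 0.0959), while omission of control replicate 2 left chp at −0.55 (adjusted p = 0.00372).

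The histamine genes (3 tested) split as well. Hdc was higher by 0.50 ± 0.12 (adjusted p = 0.00264), which became 0.30 without control replicate 2 (adjusted p = 0.0762). The gene e, whose enzyme joins β-alanine to histamine in glia and to dopamine in the cuticle, had the largest change of the 28. It was between 7.39 and 8.91 in +D and between 7.01 and 8.21 in −D sublines, against 10.11, 9.96 and 9.65 in the control (−2.04 ± 0.23, 0.243-fold, adjusted p = 1.49e-06).

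Chromophore supply (6 tested) changed in 1 gene, ninaD, a scavenger receptor for the uptake of carotenoids. It was between 7.78 and 9.85 in +D and between 7.91 and 10.47 in −D sublines, against 10.40, 10.33 and 10.13 in the control (−1.05 ± 0.28, adjusted p = 0.00441). It also differed among lines (adjusted p = 0.00519), with line 5 lower than the others by 0.98 on average (adjusted p = 0.0147) and line 7 higher by 0.95 (adjusted p = 0.0143). The pigment transporter gene st was higher in the inbred sublines (0.24 ± 0.10, adjusted p = 0.0483), and pros, a transcription factor of R7 cells and of many neurons, was lower (−0.54 ± 0.21, adjusted p = 0.0473). The call of st was lost in 24 of 35 other ways of processing the data, and that of pros in 22 of 34. pros differed among lines too (adjusted p = 0.0175). No gene was tested in the list of other rhodopsins.

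**Figure D4:**
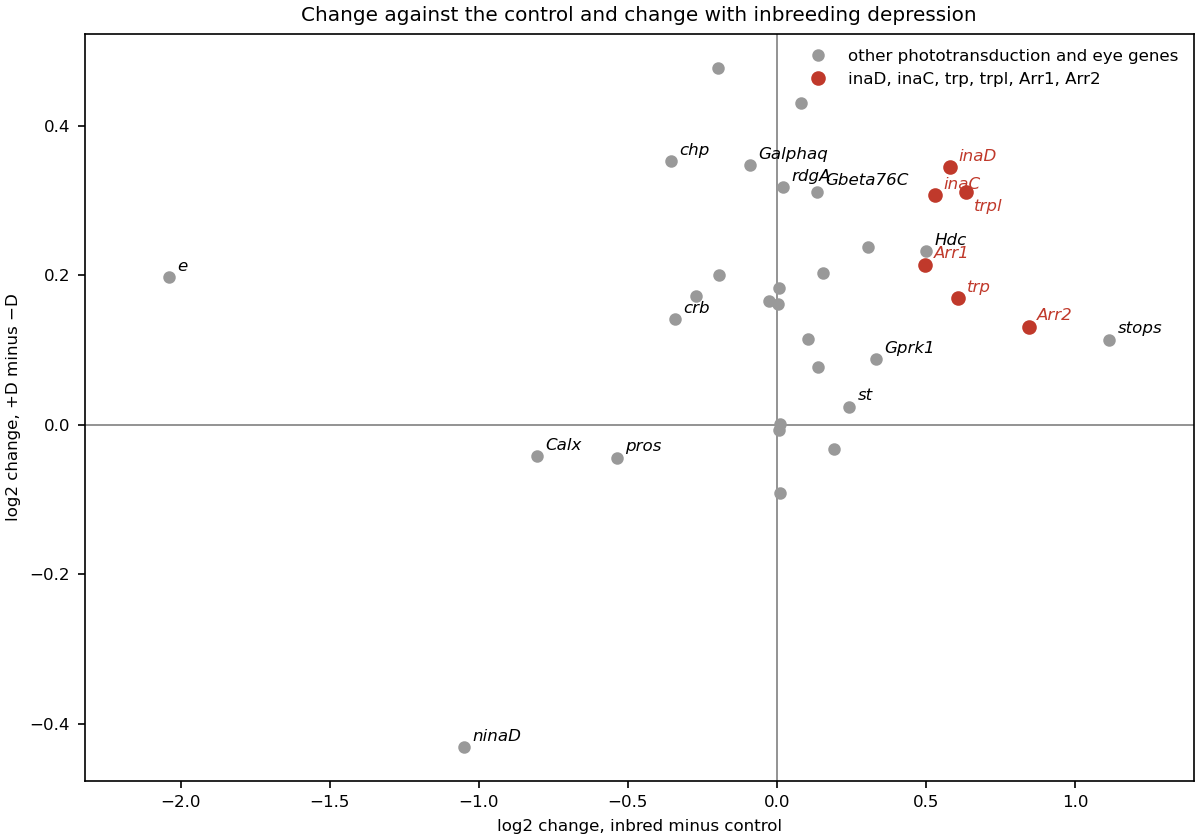
Log2 change between +D and −D (vertical axis) on the log2 change between inbred sublines and control (horizontal axis). Red points are the 6 phototransduction genes and grey points the 28 other genes tested, with names where 1 of the changes passed the threshold. All red points lie in the upper right, between 0.50 and 0.85 on the horizontal axis, while grey points reach from −2.04 for e to 1.11 for stops.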

How the data were processed

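RNA of pools of 30 whole males was hybridized to Affymetrix Drosophila Genome 2.0 arrays. The values are log2 intensities as the authors deposited them, after background adjustment, quantile normalization and summarization with RMA (Partek 7.3.3 and affy). No genome build is given in the sources used here. In the table of 27 arrays 183 probe sets are controls of the manufacturer and were dropped, and of the other 18769 the 9133 with the highest maximum were tested. The precision is limited by how many arrays there are, since arrays hold no counts.

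One linear model with 9 group means was fitted with limma 3.58.1 in R 4.3.3, with a trend in the variance prior. p-values were adjusted by Benjamini-Hochberg over 9133 probe sets (threshold 0.05). Genes were named from the annotation of the platform where a probe set matched 1 gene (13647 probe sets; 402 match several and 4720 none), and the probe set of the highest mean stood for a gene. The probe set of trpl is of a kind that can match several transcripts.

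Named are the members, list genes past the threshold against the control, between levels or among lines, and the 5 probe sets of 1 gene most correlated with the mean of the members. A search for genes like ninaE could not be made. Marker genes and control samples beyond this rule are named for their values beside a result. Members and lists were chosen with earlier results of these data known.

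The steps were tested on simulated data. Alternatives were other filters, median centring, no trend, array weights, the replicate number as a block, the sample codes as a covariate, the separately normalized table of 24 inbred arrays, an additive model, and omission of arrays.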

Additional observations from a re-analysis of the deposited data

How the results depend on the processing

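Against the control all 6 genes kept their direction under every alternative, and inaD, Arr1 and Arr2 also stayed past the threshold. Omission of 1 array at a time gave 3 to 6 genes for the inbred sublines, 4 to 6 for +D and 1 to 5 for −D, with the low ends set by control replicate 2. The share of all probe sets higher in the inbred sublines was 19.8 to 32.3% over these omissions, and 23% without control replicate 2. For −D the count was 3 with median centring and 1 with the sample codes as a covariate. Between levels it was 2 to 3 over omissions of 1 array, 1 without the 3 arrays with eggshell transcripts (inaC at 0.23, adjusted p = 0.0994) and 0 with the sample codes, which also left 0 genes among lines. The share of all probe sets higher in +D was 4.55% without the eggshell arrays and 1.34% with the sample codes.

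Within lines the count was 0 to 1 over omissions of 1 array, 1 with median centring (inaD in line 12), 2 with array weights (inaD and inaC in line 12) and 1 in the table of 24 arrays. Signs turned for small changes only. In line 7 median centring gave 7e-04 for inaD, 0.021 for Arr1 and 0.019 for Arr2, array weights 0.062 for Arr1 and 0.037 for Arr2, the sample codes 0.017 for inaC, 0.013 for Arr1 and 0.041 for Arr2, the omission of the eggshell arrays 0.012 for Arr1 and 0.014 for Arr2, and the table of 24 arrays 0.0046 for Arr1 and 0.0010 for Arr2. Omission of 1 array moved them from −0.14 to 0.12 for Arr1, from −0.15 to 0.12 for Arr2, from −0.19 to 0.067 for inaC and from −0.16 to 0.15 for inaD. In line 5 trp was −0.047 without the eggshell arrays and from −0.047 to 0.34 over omissions of 1 array. The cause of these shifts was not tested.

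In the other lists the genes past the threshold between levels numbered 4 to 7 over omissions of 1 array, 8 with array weights and 1 with the sample codes, which is none of the 4 named, and against the control 7 to 11 over omissions. Over all probe sets those higher in +D were 584 (6.39%), with 7.6% under array weights and 122 (1.34%) with the sample codes. Those higher in the inbred sublines were 2693, and 1709 with median centring.

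With the replicate number as a block the counts were 2 between levels and 6 against the control, as without it, and the call of trpl in line 5 was lost (0.60, adjusted p = 0.0566). The numbers do not pair the samples, since r between deviations of +D and −D samples of one number was over 0.1 in 2 of 12 pairs (from −0.55 to 0.25), and 2 of 12 +D samples correlated best with the −D sample of their number.

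With 3 arrays a group, and 3 for the control, small differences within lines cannot be resolved.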
